A study of Macaca fascicularis with 605 samples.

Results

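Keratins are the intermediate filament proteins of epithelial cells, and 46 of the 26018 genes in the table carried a keratin symbol, KRT followed by a number and at most 1 further letter. They were described in single cells of cynomolgus monkey (Macaca fascicularis), profiled by SC3-seq, which amplifies the cDNA of 1 cell and reads a tag near the 3-prime end of each transcript. A keratin was called expressed where it reached 10 RPM, reads scaled to the mapped total of the cell, in at least 5 cells, which 13 of the 46 did.

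The table held 540 embryo cells, 28 embryonic stem cells of 3 lines (ESCs), 12 cells induced in culture toward primordial germ cells (PGCLCs) and 25 gonadal germ cells, and none of the labels names a genetic or drug treatment of the animals. Whole embryos before implantation gave 24 cells of E06, 30 of E07, 86 of E08 and 16 of E09. The other 384 came from dissected pieces of implanted embryos that held epiblast, amnion, hypoblast and yolk sac endoderm, with 39 cells of E14, 56 of E17 and 5 of E20, and 29.4% of them from E13 and 44.5% from E16. ESCs were 13 cells of line CMK6 and 7 of CMK9, grown on mouse feeder cells with 20% serum replacement (KSR), 1000 U/ml LIF and 4 ng/ml bFGF, and 8 cells of 656BTAG, grown in AITS medium with 20 ng/ml bFGF and IWR1 (2.5 nM as labelled). PGCLCs were BTAG-positive cells of the 656BTAG line alone, sorted on day 8 of aggregation with 200 ng/ml BMP4, 100 ng/ml SCF, 50 ng/ml EGF, 1000 U/ml LIF and 10 µM Y27632. There were 6 from GMEM with 15% KSR (GK15) and 6 from Advanced RPMI with B27 (aRB27), so each medium is 1 culture. Gonadal cells came from E36 (5 cells), E43 (6), E47 (1), E50 (5), E51 (7) and E55 (1), and their cDNAs had been picked as germ cells by quantitative PCR. The description of 1 cell of CMK6 names CMK9, and the ESC comparisons are given with each line left out. As a check of the labels, 7 germ cell markers summed to a median of 1568 RPM in PGCLCs and 869 in gonadal cells, against 23.4 in ESCs.

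Type II keratins, which include KRT8 and KRT7, are basic to neutral proteins, and type I keratins, which include KRT18, KRT19 and KRT10, are acidic. Filaments form only from pairs of 1 of each type, so the partners are usually made together. KRT8, KRT18 and KRT19 are the keratins of simple, single-layered epithelia and are known from the trophectoderm of the blastocyst and from extraembryonic epithelia, while KRT10 is best known from the upper layers of skin, and KRT33A and its relatives from hair.

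Cells are not replicates here. Levels are given as the mean RPM of the cells of 1 line, medium or day (a unit, with at least 5 cells), with the SD over units, and adjusted p-values come from limma on log2(mean RPM + 1) over all genes tested. They measure only the spread between these units, since the labels name no separate animals or cultures. Depth, recovered for 551 cells, ran from 174754 to 19696654 reads with a median of 2027286, so 10 RPM stood for 1.75 reads in the shallowest cell and 197 in the deepest. A value of 0 can be a failed capture, and a library of 1 cell is not repeated. KRT8 and KRT18 have many processed pseudogenes in primates, and how reads that match several places were counted is not given in the sources used here.

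Of the 13 expressed keratins, 3 of 19 were type II (KRT8, KRT7 and KRT80), 9 of 26 were type I (KRT18, KRT19, KRT10, KRT23, KRT15, KRT20, KRT40, KRT33A and KRT33B) and the last was KRT222, a keratin-like gene counted in neither type. KRT8 reached 10 RPM in 581 cells, KRT18 in 580, KRT19 in 557 and KRT10 in 428. KRT7 did so in 22.98% of all cells, and the other 8 in 47 or fewer. At the edge of the rule, KRT20 and KRT33B passed with 7 cells each, and KRT17, KRT28 and KRT34 missed it with 4 each. Of the 33 keratins that were not expressed, 9 reached 10 RPM in 1 to 4 cells (KRT12, KRT13, KRT17, KRT24, KRT26, KRT28, KRT34, KRT39 and KRT78) and 24 never reached it. Of the 24, KRT2, KRT36, KRT71, KRT73, KRT74, KRT76 and KRT82 were listed at 0 in every cell. The basal and suprabasal skin keratins KRT5, KRT14 and KRT1 were among the 24, with highest single-cell values of 3.44, 2.91 and 0.98 RPM. At 50 RPM in 5 cells the count of expressed keratins was 8, and at 10 RPM in 10 cells it was 10.

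**Figure D1:**
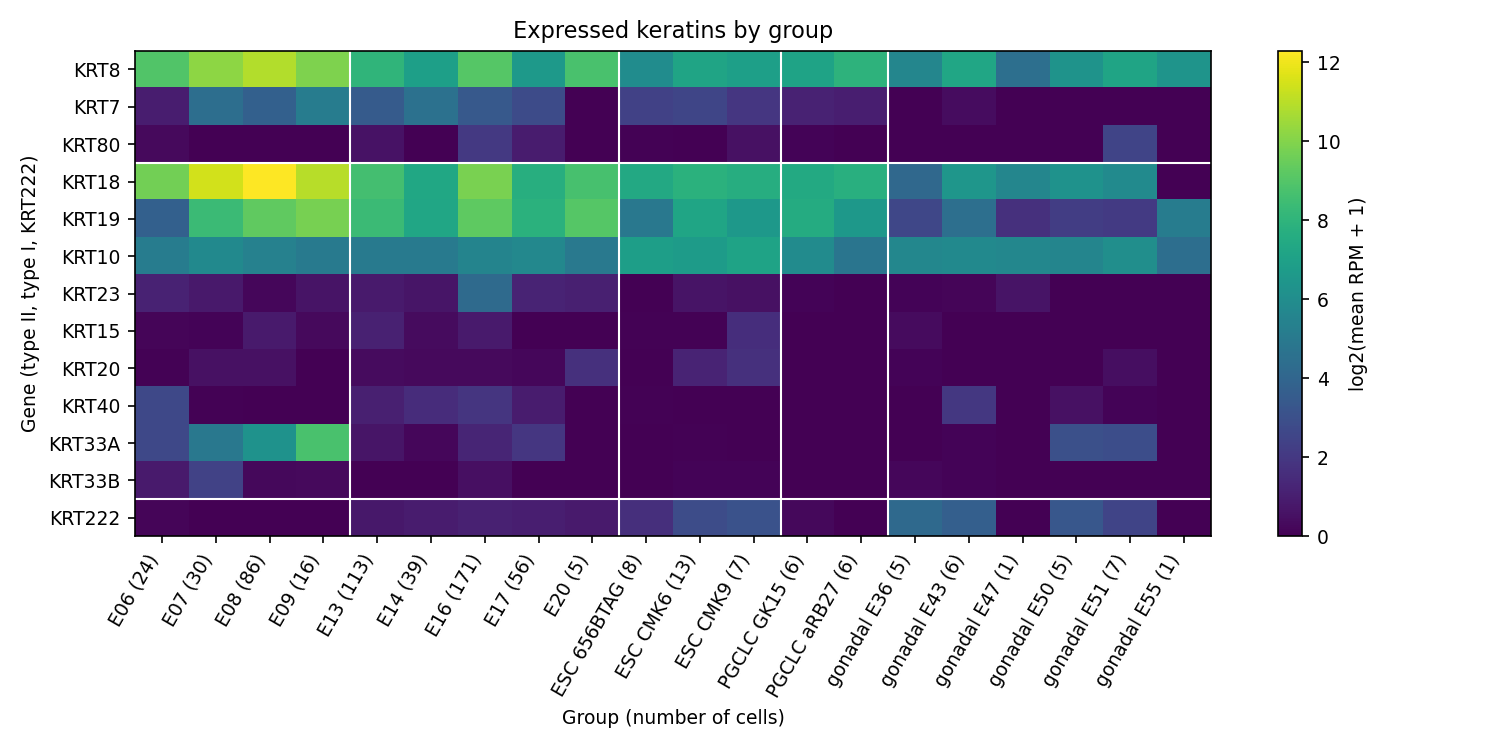
Mean level of the 13 expressed keratins (rows, type II, then type I, then KRT222) in every group of cells (columns, number of cells in brackets), as log2(mean RPM + 1), with brighter colours for higher levels. KRT8 and KRT18 are bright in every embryo group and brightest at E08, while KRT19 is dark in the gonadal germ cells and KRT33A is bright from E07 to E09.

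The keratins of simple epithelium were near universal. KRT8, KRT18 and KRT19 each reached 10 RPM together in 520 cells, and no cell had all of them below it. The triple was present in 89.1% of preimplantation cells, 342 of 384 postimplantation cells, 25 of 28 ESCs and 11 of 12 PGCLCs, but in 3 of 25 gonadal germ cells. A cell had a median of 4 of the 13 keratins at 10 RPM (1 to 9). KRT8 made up 98.1% of the summed type II keratin RPM of embryo cells, and KRT18 made up 73.4% and KRT19 22.6% of the type I sum. In the RefSeq gene order of assembly T2T-MFA8v1.1, KRT8 and KRT18 are neighbours on chromosome 11, as are KRT80 and KRT7, and KRT15 and KRT19 are neighbours on chromosome 16. KRT8 and KRT18 varied together from cell to cell within a day, to a degree that differed between days. The correlation of their log2(RPM + 1) was r = 0.85 at E06, 0.93 over the 30 cells of E07, 0.97 over the 86 cells of E08 and 0.79 at E09. After implantation it was 0.64 at E13, 0.51 at E14, 0.85 at E16 and 0.25 over the 56 cells of E17. For KRT8 and KRT19, which lie on different chromosomes, r ran from 0.16 at E06 to 0.79 at E16 and was 0.53 at E17. These are descriptions of cells that share embryos and libraries.

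By day, KRT18 and KRT8 were highest at E08. KRT18 averaged 829 RPM at E06, 2830.0 at E07, 5016 at E08 and 2037 at E09, then 391 at E13, 161.5 at E14, 912 at E16, 205.6 at E17 and 426 at E20. KRT8, its partner, averaged 497, 1190.3, 1896 and 960 on the 4 days before implantation and 266, 121.5, 529, 97.98 and 432 on the 5 days after it. Both were low at E14 and E17 and higher at E16. E16 was the only day after implantation to lie above a day before it, and that day was E06 alone. KRT18 was at 912 against 829 RPM and KRT8 at 529 against 497. KRT19 had another course, with 12.5 RPM at E06, 335 at E07, 633 at E08 and 873 at E09, and then 336, 152.6, 614, 226.7 and 522. Its mean at E06 was the lowest of the 9 days, and only 9 of the 24 cells of that day reached 10 RPM, against 29 of 30 at E07. KRT10 averaged between 30.6 and 56.5 RPM on each of the 9 days. At E20 its mean rested on 1 of the 5 cells, at 141.98 RPM, and the median there was 4.3 RPM.

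Across all embryo cells, 6 of the 13 expressed keratins reached a unit mean of 10 RPM on at least 2 days and could be set between the 5 days after and the 4 days before implantation. KRT18 was lower after implantation by a log2 difference of -2.67 ± 0.56 (SE, adjusted p = 0.00512), with 419 ± 298 RPM against 2678 ± 1763 (SD over days). KRT8 was lower by -2.11 ± 0.53 (adjusted p = 0.0125), with 289 ± 189 against 1136 ± 583. Thus 2 simple keratins were lower, with the ranges of the days overlapping only through E16 and E06, while KRT19 (0.55 ± 1.03, adjusted p = 0.714), KRT10 (-0.09 ± 0.25, adjusted p = 0.803) and KRT7 (-0.72 ± 0.99, adjusted p = 0.608) did not pass the test. Leaving out KRT33A, which is only described further on, 2 of 5 keratins were called, and 30.7% of all 10011 genes were. KRT8 lost its call with no filter on low genes (adjusted p = 0.0595) and with edgeR on recovered reads (adjusted p = 0.0659). For KRT19 the difference had the opposite sign without E06 (-0.80, adjusted p = 0.226).

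The titles carry codes of the form MS126, whose meaning the labels do not give, and 3 codes held at least 3 cells of both stages. KRT8 and KRT18 were lower after implantation within each of the 3, and KRT19 in 2. The differences were largest in MS132, where KRT18 averaged 11348 RPM in 13 preimplantation and 575 in 54 postimplantation cells, and KRT8 averaged 4266 and 348. In MS126, with 15 and 53 cells, KRT18 averaged 1858 and 260.3 RPM and KRT8 757.7 and 158.4. In MS133, with 43 and 11 cells, KRT18 averaged 5289 and 1242 RPM and KRT8 1892 and 599.4. Whole embryos and dissected pieces hold different mixtures of cells, so stage and dissection cannot be told apart in these values.

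To compare keratins beside factors of the embryonic lineages, embryo cells were sorted by 4 gates, each a level of at least 50 RPM of 1 gene in the same cell. They are GATA3, a factor of trophectoderm and amnion, GATA4, a factor of hypoblast and yolk sac endoderm, SOX2, a factor of the epiblast, and COL3A1, a collagen of mesenchyme. The gates held 190, 180, 230 and 92 of the 540 cells, 179 cells lay in more than 1 gate and 53 in none. A gate is a measured level and not a cell type, and 88 of the 190 GATA3 cells also passed the GATA4 gate. Inside and outside cells were compared day by day, with the day as a block.

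**Figure D2:**
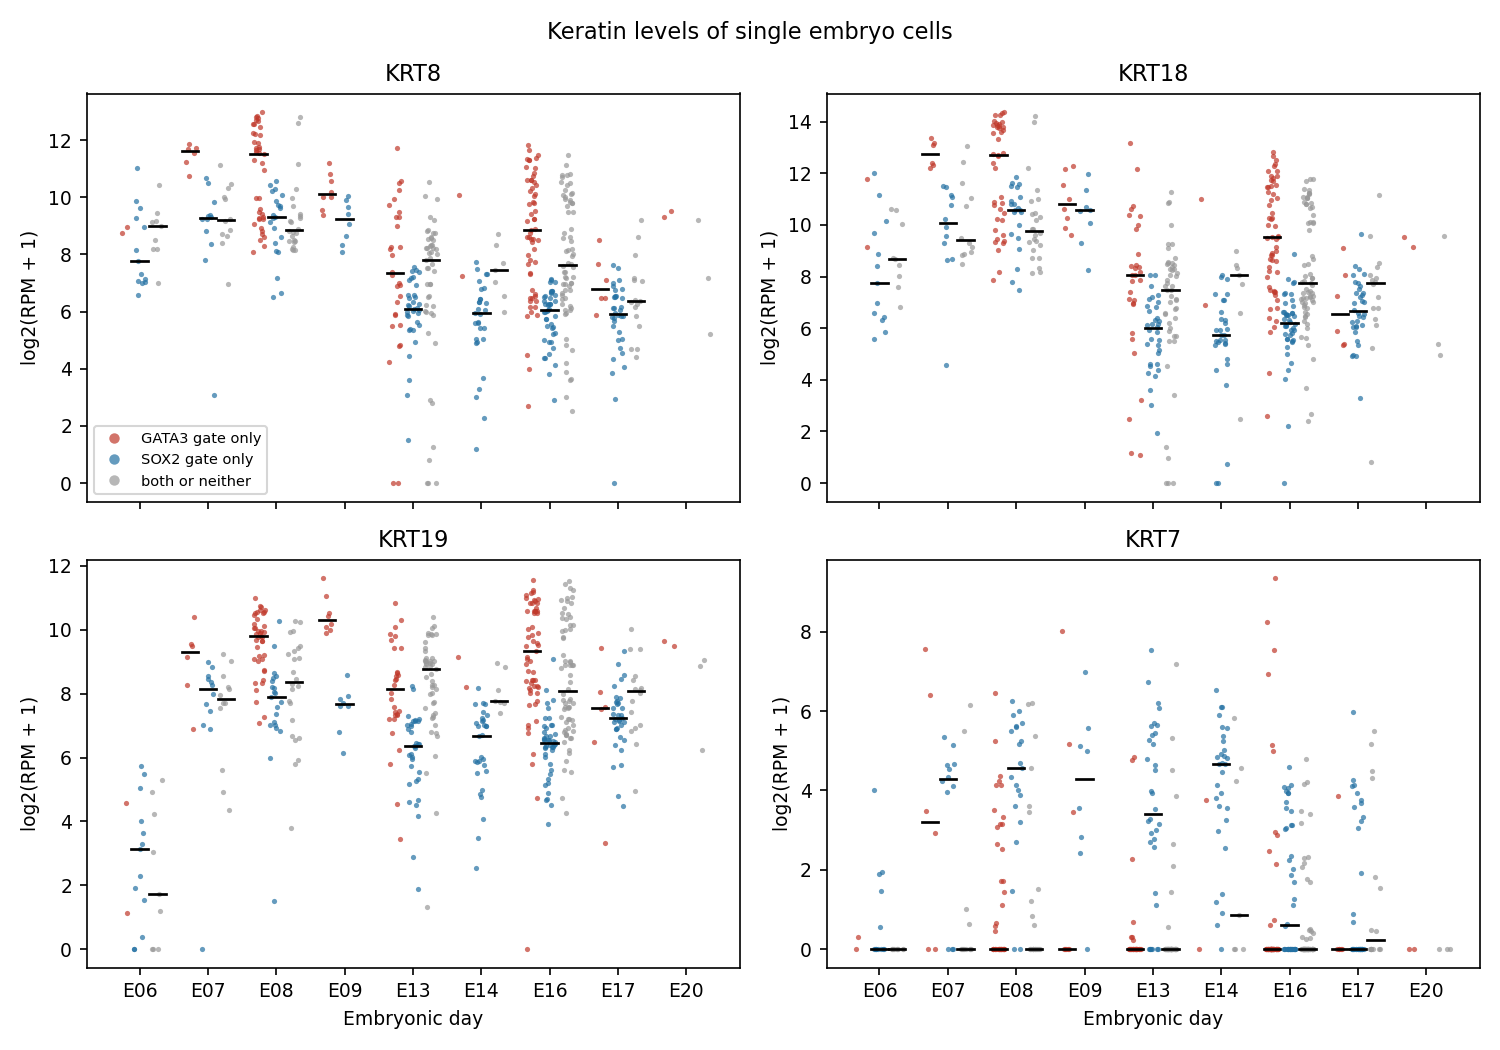
KRT8, KRT18, KRT19 and KRT7 in single embryo cells (points) by embryonic day, as log2(RPM + 1), with cells inside the GATA3 gate alone in red, inside the SOX2 gate alone in blue and cells in both or neither in grey. Black bars are medians of at least 5 cells, and at E08 the red cells reach the highest KRT8 and KRT18 values (8105 and 21244 RPM).

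Cells inside the GATA3 gate had more of all 3 simple keratins. KRT8 averaged 2197, 2892 and 1289.7 RPM inside the gate at E07, E08 and E09, against 607, 750.0 and 629.6 outside it. At E13, E14, E16 and E17 it averaged 439, 344, 905 and 155.1 inside and 189, 72.8, 280 and 85.6 outside. KRT8 was higher inside on 7 of 7 days, by 1.54 ± 0.16 (log2, SE, adjusted p = 0.00373). KRT18 averaged 2774 ± 2988 RPM inside and 757 ± 688 outside (SD, n = 7 days), higher on 7 of 7 days by 1.70 ± 0.26 (adjusted p = 0.0152). At E08 KRT18 averaged 7961 RPM inside and 1630.2 outside, and at E14 it averaged 505 in 7 cells and 86.3 in 32. KRT19 averaged 689 ± 454 inside and 268 ± 102.03 outside, again higher on 7 of 7 days, by 1.22 ± 0.25 (adjusted p = 0.0324). These 3 of the 6 tested keratins were called, against 2.57% of 10545 genes, while KRT7 (0.12 ± 0.51, adjusted p = 0.923) and KRT10 (0.04 ± 0.17, adjusted p = 0.916) did not pass.

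Within title codes of a day, KRT8 was higher inside the GATA3 gate in 16 of 17, KRT18 in 15 and KRT19 in 14. The calls of KRT8, KRT18 and KRT19 were lost with edgeR on recovered reads (adjusted p = 0.0600, 0.0638 and 0.236), with no filter on low genes (0.104, 0.155 and 0.230) and with no day block (0.505, 0.538 and 0.324). KRT19 also lost its call without E07, E08, E13, E14 or E16 (adjusted p = 0.0648, 0.0821, 0.0536, 0.0754 and 0.0713). Markers of several cell types moved with the gate, and their part in the result was not tested. Without GATA3 itself, 8 trophectoderm and trophoblast markers summed to a median of 1080 RPM in the 68 preimplantation cells inside (71.8 to 9697) and 339 in the 88 outside (55.04 to 884), where ELF5 was at 0. After implantation, 7 amnion markers without GATA3 summed to a median of 225.5 RPM inside (0 to 7435) and 47.8 in the 262 cells outside (0 to 6257). The 8 hypoblast and yolk sac endoderm markers were higher inside after implantation as well, with medians of 573 RPM (0 to 22259) and 50.2 (0 to 7028), and the 6 epiblast markers were lower, with 901 (12.7 to 8822) and 3803 (13.4 to 8990). Median depth was 2147843 reads inside and 2049786 outside.

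Cells inside the SOX2 gate were the converse, with less of the same 3 keratins. KRT8 averaged 482 ± 363 RPM inside and 982 ± 777 outside (SD, n = 7 days), lower inside on 7 of 7 days by -1.06 ± 0.17 (log2, SE, adjusted p = 0.00920). KRT18 averaged 1115 ± 998 and 2144 ± 2111, also lower on 7 of 7 days (-1.04 ± 0.22, adjusted p = 0.0215). KRT19 averaged 194 ± 97.3 and 611 ± 490, lower on 6 of 7 days (-1.25 ± 0.30, adjusted p = 0.0342), with E06, where both sides were low (13.4 and 11.3 RPM), as the exception. Here too 3 of 6 keratins were called, against 7.68% of 10537 genes. At E09 the 8 cells inside the SOX2 gate were exactly the 8 outside the GATA3 gate, so that day is 1 measurement for both gates.

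With no day block the calls of KRT8, KRT18 and KRT19 inside the SOX2 gate were lost (adjusted p = 0.4931, 0.584 and 0.560), as they were with no filter (0.0875, 0.142 and 0.174), and edgeR kept KRT8 alone (0.0949 for KRT18 and 0.146 for KRT19). KRT18 lost its call without E07, E08, E13 or E16 (adjusted p = 0.0518, 0.0674, 0.0586 and 0.0512). KRT19 lost it without E07, E08, E09, E13 or E16 (0.0685, 0.0912, 0.0532, 0.0917 and 0.0778). By title code KRT19 was lower inside in 15 of 16. The 5 epiblast markers other than SOX2 summed to a median of 3865 RPM in the 65 preimplantation cells inside the gate (126.2 to 6796) and 1016 in the 91 outside (262 to 2821), and their part in the result was not tested.

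For the GATA4 gate the largest keratin difference was that of KRT7. KRT7, a type II keratin of simple and glandular epithelia and of trophoblast, averaged 0.198, 0.845 and 1.81 RPM inside the gate at E07, E08 and E09 and 27.9, 20.7 and 55.1 outside. After implantation the pairs were 0.136 and 22.8 RPM at E13, 7.03 and 25.3 at E14, 1.11 and 13.47 at E16 and, the other way round, 10.5 and 5.02 at E17. KRT7 was thus lower inside on 6 of 7 days, by a log2 difference of -2.92. KRT7 passed the filter on low genes almost wholly through the cells outside, since it reached 10 RPM inside the gate at E17 alone. Its difference is therefore a description, and no test is given. KRT8 (-0.19 ± 0.39, log2, SE, adjusted p = 0.813), KRT18 (-0.61 ± 0.47, adjusted p = 0.459) and KRT19 (0.13 ± 0.20, adjusted p = 0.741) did not pass. Leaving out KRT7, no tested keratin was called, against 5.92% of 10553 genes. Over the alternatives tried the KRT7 difference ran from -4.30 to -1.32. By title code KRT7 was lower inside in 12 of 15. The 7 hypoblast and yolk sac endoderm markers other than GATA4 summed to a median of 4017 RPM in the 51 preimplantation cells inside (502 to 14870.1) and 264.7 outside (0 to 6355), and their part was not tested.

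**Figure D3:**
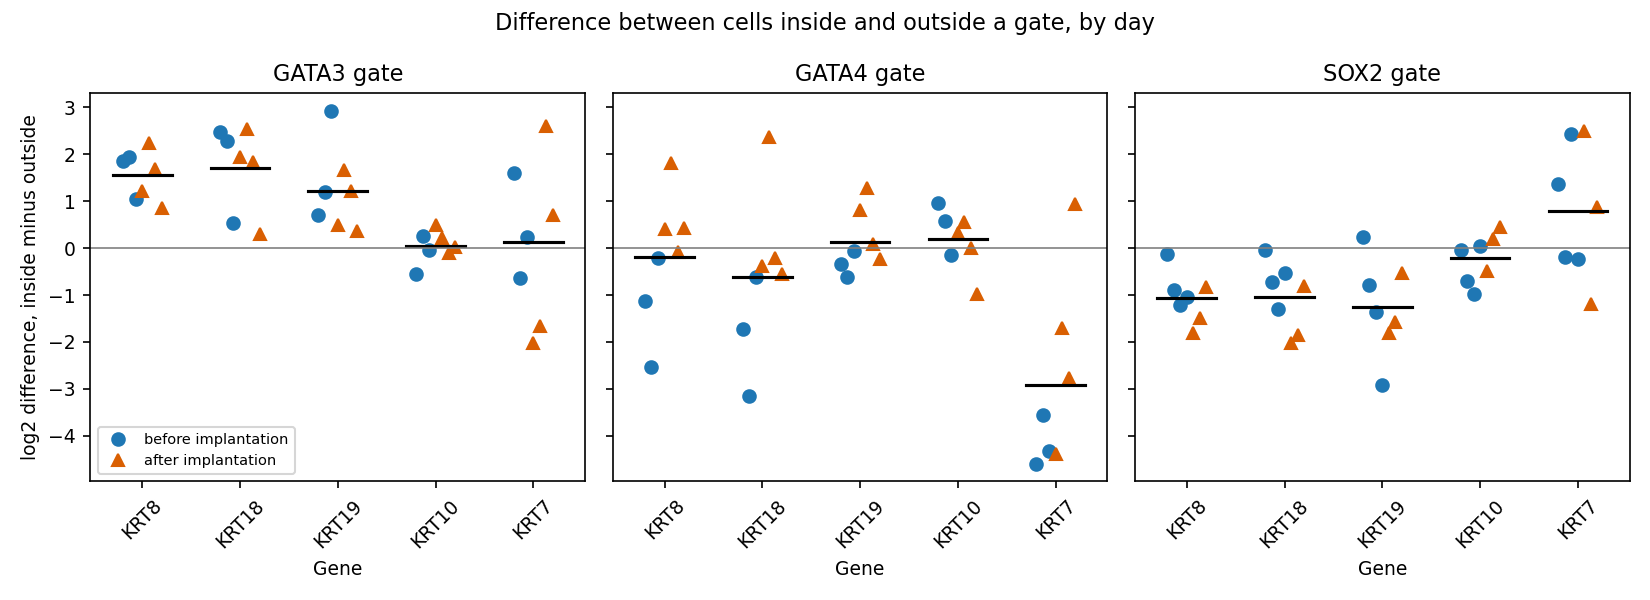
Log2 difference of the mean level, inside minus outside each gate, for 5 keratins, with 1 point per embryonic day (circles before implantation, triangles after it) and a black bar at the mean of the days. The 7 points of KRT8 lie above 0 for the GATA3 gate and below 0 for the SOX2 gate, and 6 of 7 points of KRT7 lie below 0 for the GATA4 gate.

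COL3A1 cells were found on E13 to E20 only, and 2 days (E13 and E16) had at least 5 cells on each side of the gate. KRT19 averaged 589 RPM in 36 cells inside and 217.2 in 77 outside at E13, and 1047 in 48 inside and 444 outside at E16. KRT8 averaged 418 and 195 at E13 and 930 and 372 at E16. With limma 0 of 5 keratins and 0.0549% of 9106 genes were called with 2 pairs of days (KRT19 1.33 ± 0.19, adjusted p = 0.172, and KRT8 1.21 ± 0.20, adjusted p = 0.185), though 1340 genes had an unadjusted p under 0.05. Averaging log2 values in place of RPM called KRT8, KRT18 and KRT19 (adjusted p = 0.00243, 0.000121 and 3.35e-05). By title code KRT19 was higher inside in 9 of 9 and passed (1.28 ± 0.23, adjusted p = 0.0101). The 9 extraembryonic mesenchyme markers other than COL3A1 summed to a median of 3043 RPM in the 92 postimplantation cells inside (3.71 to 29719). In the 292 outside the median was 106.6 (0 to 2769), and the part of these markers was not tested. KRT19 reached 10 RPM in 92 of the 92 cells inside and in 285 of the 292 outside. Other intermediate filaments, which include vimentin, the usual filament of mesenchyme, had a median of 1.19 (log2) over 6 tested genes beside -0.13 over all genes, with 0 of the 6 called.

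Within gates KRT8 and KRT18 were compared between the stages again. A gate does not hold the same cells in both stages. Inside the GATA3 gate GATA2, a trophectoderm factor, averaged 541 RPM before and 26.6 after implantation, and the 10 mesenchyme markers had a median sum of 18.9 RPM before (0 to 922) and 226.8 after (0 to 40080), and the part of these in the result was not tested. Inside the GATA3 gate KRT18 averaged 5419.6 ± 2808 RPM on 3 days before and 790 ± 593 on 4 days after implantation (-2.94 ± 0.59, adjusted p = 0.00933), and KRT8 averaged 2126 ± 804 and 461 ± 319 (-2.40 ± 0.51, adjusted p = 0.0117). The days of the stages did not overlap for either gene, and 2 of 6 keratins were called, against 17.8% of 9933 genes. KRT8 lost its call without E08 (adjusted p = 0.0540), and both lost it with no filter (0.0923 for KRT8 and 0.0850 for KRT18). Inside the SOX2 gate KRT18 averaged 819, 2198, 2498 and 1669 RPM from E06 to E09 and 129.1, 105.5, 324 and 165.4 at E13, E14, E16 and E17 (-3.32 ± 0.38, adjusted p = 0.000103). KRT8 there averaged 739.8 ± 227.98 and 126.99 ± 73.3 (-2.62 ± 0.33, adjusted p = 0.000177), again without overlap. Leaving out KRT33A, 2 of 5 keratins were called inside the SOX2 gate, against 37.7% of 9537 genes, and KRT8 and KRT18 passed under each of the 13 alternatives tried. Inside the GATA4 gate 0 of 5 keratins and 18.8% of 9790 genes were called by limma (KRT18 -1.53 ± 0.49, adjusted p = 0.0571, and KRT8 -1.21 ± 0.42, adjusted p = 0.0686), 3445 genes had an unadjusted p under 0.05, and edgeR on recovered reads called 0 of the keratins. Without E16 both passed inside the GATA4 gate (adjusted p = 0.0253 for KRT18 and 0.0344 for KRT8).

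Whether the gates separated the keratins to a different degree before and after implantation was tested as the difference of the day effects, an analysis added after seeing the data. Of 18 tests (6 keratins in each of 3 gates) 0 were called by limma over all genes, with adjusted p from 0.191 to 0.972 and 5 with an unadjusted p under 0.05. The GATA4 gate difference changed by 1.92 ± 0.64 for KRT8 (adjusted p = 0.238) and by 2.14 ± 0.85 for KRT18 (adjusted p = 0.311), while the GATA3 gate difference of KRT8 changed by -0.12 ± 0.42 (adjusted p = 0.937). Over cells, KRT8 averaged 582 RPM inside and 1870.2 outside the GATA4 gate before implantation, and 376 and 331 after it.

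KRT7 was a keratin of a minority of cells. It reached 10 RPM in 1 of 24 cells at E06, 14 of 30 at E07, 29 of 86 at E08 and 8 of 16 at E09, then in 23 cells at E13 and 20 at E16, 26 of 39 at E14, 13 of 56 at E17 and 0 of 5 at E20. E14 had the highest share and E20 no such cell, though 0 of 5 cells allows a share of up to 60%. After implantation 66 cells, 40% of those inside the SOX2 gate (exact 95% interval 32.5 to 47.9), and 16 cells, 7.31% of those outside it (4.23 to 11.6), reached 10 RPM. These intervals cover counting error only. By unit means KRT7 did not pass for the SOX2 gate (0.79 ± 0.45, adjusted p = 0.282), but it did with units by title code (1.45, adjusted p = 0.0417) and with the mean of log2 values (1.66, adjusted p = 0.0130). The highest KRT7 value, 648 RPM, belonged to an E16 cell outside the SOX2 gate that also had 7229 RPM of KRT18 and 1003 of GATA3.

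KRT33A, a type I keratin known from hair, reached 10 RPM in few cells, most of them before implantation. It averaged 5.38, 29.5, 75.6 and 435 RPM from E06 to E09 and 0.626, 0.177, 1.45, 2.79 and 0 at E13, E14, E16, E17 and E20. The 4 days before implantation lay above the 5 after it, with a log2 difference of -4.83. Inside the SOX2 gate KRT33A averaged 8.49, 40.02, 55.5 and 869 RPM on the days before and at most 0.197 after (a log2 difference of -5.95). KRT33A passed the filter on low genes only through the days on which it was high, so these differences are a description and no test is given. Its mean at E08 rested on 1 cell of code MS126 with 4938 RPM, without which it was 18.4 RPM. Its mean at E09 rested on 3 cells of code MS099 with 3756, 2084 and 826 RPM, without which it was 23.2.

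Across every group, 47 cells reached 10 RPM of KRT33A, 38 of them before implantation, 7 after it and 2 gonadal. POU5F1, the pluripotency factor OCT4, was at 50 RPM or more in 47 of these 47 cells and in 440 of the 558 others (78.9%), and 0 of the cells below that level had KRT33A at 10 RPM, which allows a share of up to 2.54%. Before implantation KRT33A reached 10 RPM in 30 of the 65 cells inside the SOX2 gate and in 8 of the 91 outside. It was uneven over the title codes, with 10 of 15 preimplantation cells in MS126, 17 of 50 in MS099, 4 of 16 in MS155, 3 of 43 in MS133 and 0 of 13 in MS132. The codes also differed in how many of these cells lay inside the SOX2 gate. Inside that gate the counts were 9 of 14, 15 of 27, 4 of 7, 0 of 2 and 0 of 4 in the same order. KRT33B, its neighbour on chromosome 16, was at most 68.2 RPM in any cell. In the cells with 4938, 3756 and 2084 RPM of KRT33A it was at 0, 0.28 and 0 RPM. Whether reads were divided between the 2 genes was not tested.

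**Figure D4:**
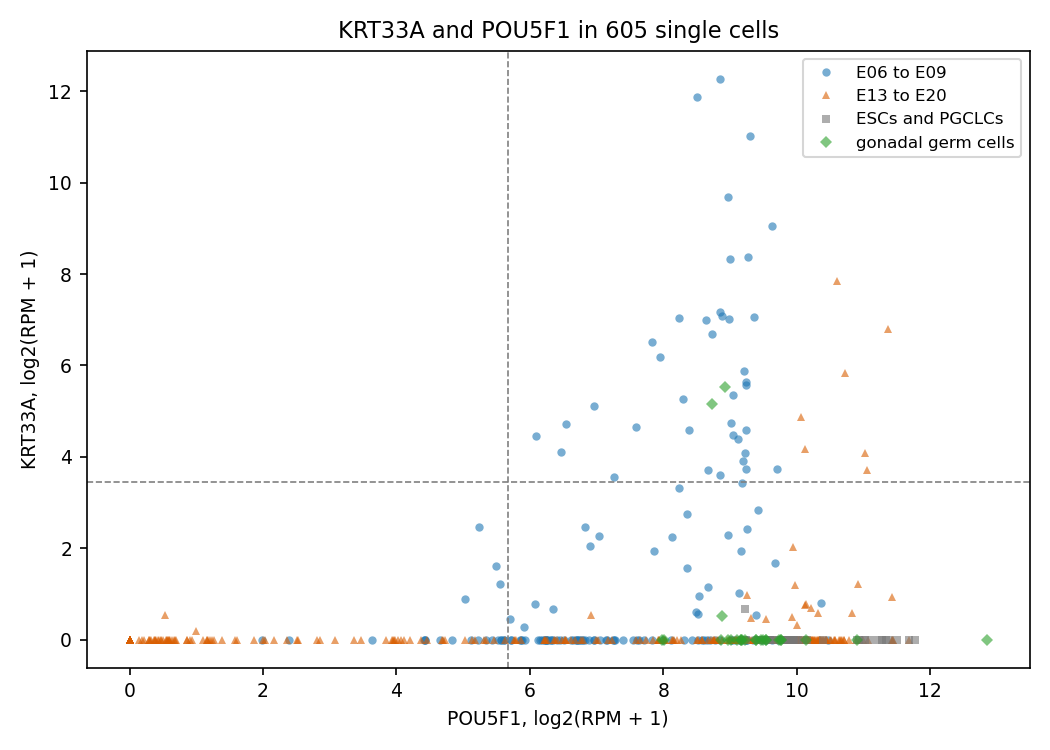
KRT33A against POU5F1 in all single cells, both as log2(RPM + 1), with dashed lines at 10 RPM of KRT33A and 50 RPM of POU5F1. The 47 cells above the horizontal line all lie to the right of the vertical line, and 38 of them are from E06 to E09 (blue).

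After implantation the 7 KRT33A cells lay outside the SOX2 gate, and 0 of the cells inside it reached 10 RPM. A split by 4 genes of early primate germ cells (SOX17, TFAP2C, PRDM1 and NANOG, each at 50 RPM or more), chosen after these values were seen, gave 25 of the 384 postimplantation cells. KRT33A reached 10 RPM in 7 of these 25 (28%, exact 95% interval 12.1 to 49.4) and in 0 of the 359 others, which allows a share of up to 0.836%. The 7 came from E13 (2 of 7 cells), E16 (2 of 11) and E17 (3 of 5), and from the codes MS117 (5 of 14), MS118 (1 of 1) and MS127 (1 of 2). The highest of them had 230 RPM. The other codes among the 25 cells held none of the 7, with 0 of 4 in MS101, 0 of 3 in MS132 and 0 of 1 in MS126. The other keratins of these 25 cells were KRT19 with a mean of 289 RPM, KRT18 with 133.1, KRT8 with 113.4 and KRT10 with 33.1. With the same 4 genes, 11 of 12 PGCLCs and 15 of 25 gonadal cells were selected, and KRT33A reached 10 RPM in 0 of the 11 and 2 of the 15 (highest 44.99 RPM). Those 2 gonadal cells also carried MS117, the code of 5 of the 7 postimplantation cells. The part of the code was not tested.

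The main keratins of cultured and gonadal cells were KRT8, KRT18, KRT19 and KRT10. KRT8 averaged 62.1 RPM in 656BTAG, 141.8 in CMK6 and 120.2 in CMK9 ESCs, 137.2 in GK15 and 244 in aRB27 PGCLCs, and 48.6, 153.98, 77.6 and 146.1 in gonadal cells of E36, E43, E50 and E51. The ESC and gonadal ranges of KRT8 overlapped. KRT18 averaged 172.9, 229.6 and 201.3 RPM in the ESC lines, 174.9 and 216.4 in the PGCLCs and 16.5, 85.8, 74.99 and 58.5 in the gonadal cells, which all lay below the ESC lines. KRT19 averaged 29.8, 148.5 and 92.1 in the ESC lines, 190.995 and 93.4 in the PGCLCs and 5.04, 21.8, 3.63 and 3.23 in the gonadal cells, again with every gonadal day below every ESC line.

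**Figure D5:**
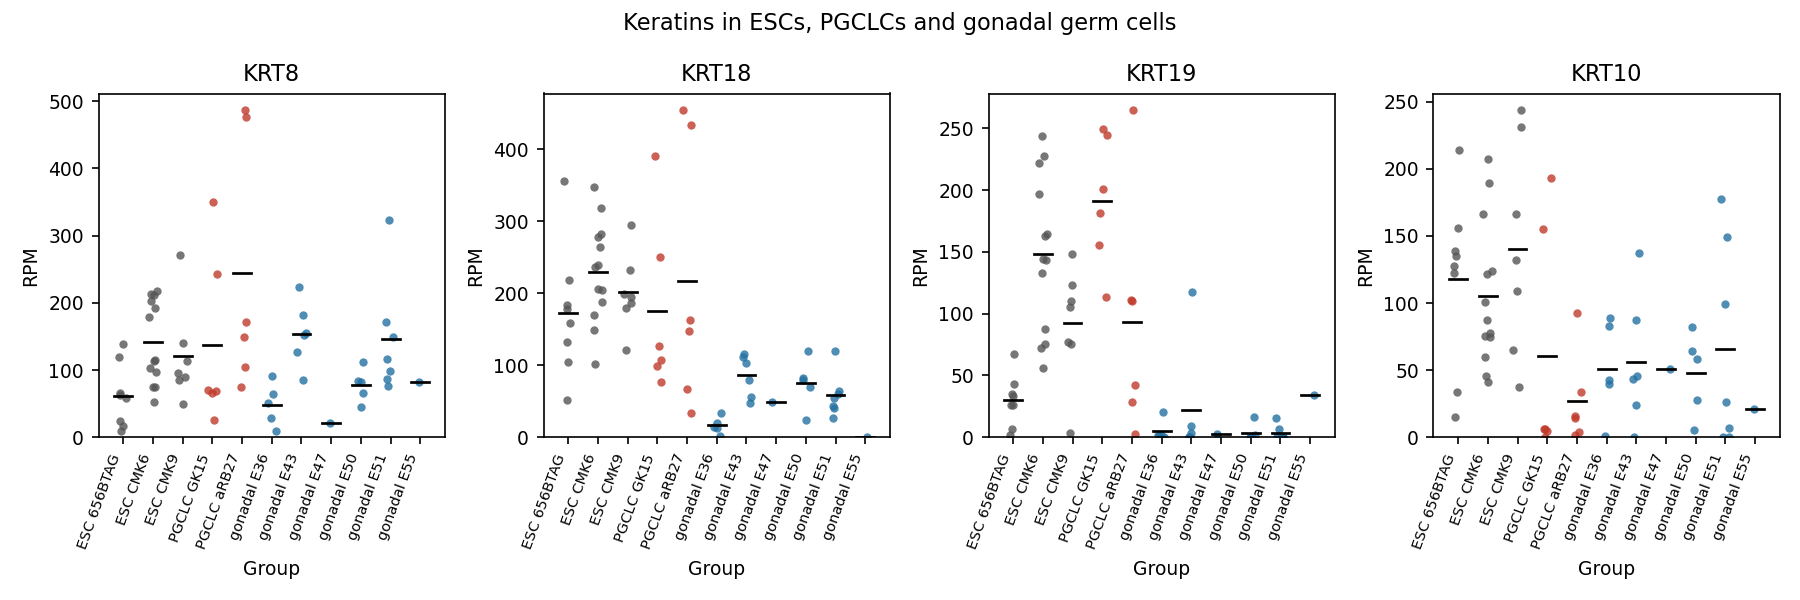
KRT8, KRT18, KRT19 and KRT10 in RPM in single ESCs (grey), PGCLCs (red) and gonadal germ cells (blue), by line, medium or embryonic day, with a black bar at the mean of each group. Gonadal germ cells lie near 0 for KRT19, apart from 1 cell of E43 at 117.98 RPM, and overlap the ESCs for KRT8.

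In gonadal germ cells against ESCs, 3 of 5 tested keratins were lower, against 20.8% of 10557 genes called. KRT19 was lower by -3.39 ± 0.67 (log2, SE, adjusted p = 0.00278), with 8.42 ± 8.94 RPM on 4 days against 90.1 ± 59.4 in 3 lines. KRT18 was lower by -1.97 ± 0.46 (adjusted p = 0.00699), and KRT10 by -1.12 ± 0.36 (adjusted p = 0.0373, with 55.2 ± 7.88 against 121.3 ± 17.8). KRT8 showed no difference beyond its spread (-0.08 ± 0.43, adjusted p = 0.913). KRT19 passed under each of its 13 alternatives, and KRT18 lost its call with no filter (adjusted p = 0.0510) and with the single cells of E47 and E55 added (0.0800). KRT10 lost its call without 656BTAG, CMK6 or CMK9 (adjusted p = 0.0809, 0.0843 and 0.153), without E36, E43 or E50 (0.0537, 0.0663 and 0.0734), with no filter (0.0559) and with edgeR (0.0943).

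The ratio of the partners was also set side by side. Each transcript gives tags from its 3-prime end, so RPM needs no division by length, but the yield per gene is not known and a ratio is compared between groups only. KRT18 RPM per KRT8 RPM was 2.198 in the means of embryo cells, 1.82 in ESCs, 1.03 in PGCLCs and 0.534 in gonadal cells. KRT18 exceeded KRT8 in 25 of 28 ESCs, 6 of 12 PGCLCs and 5 of 25 gonadal cells. In code MS132, which held 4 gonadal cells and 3 ESCs, KRT18 averaged 65.9 and 206.4 RPM, KRT19 31.6 and 174 and KRT8 179.1 and 126.3. Markers of gonadal somatic cells were present in the gonadal set, with a median sum of 189.6 RPM over 10 genes (12.5 to 2193), and 10 of 25 cells had at least 3 of these genes at 50 RPM. KRT19 averaged 15.6 RPM in those 10 and 5.19 in the other 15, KRT18 62.4 and 53.8 and KRT10 79.8 and 37.6.

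In PGCLCs against ESCs, 1 of 5 tested keratins was called, against 11.1% of 10557 genes. KRT10 was lower, with 60.8 RPM in GK15 and 26.9 in aRB27 against 117.9, 105.5 and 140.6 in the ESC lines (-1.55 ± 0.43, adjusted p = 0.0311). The call was lost without any 1 of the ESC lines (adjusted p = 0.0527 without 656BTAG, 0.0743 without CMK6 and 0.124 without CMK9), without aRB27 (0.206), with no filter (0.0542) and with edgeR (0.185). KRT8 (0.84 ± 0.51, adjusted p = 0.334), KRT19 (0.84 ± 0.80, adjusted p = 0.566) and KRT18 (-0.04 ± 0.54, adjusted p = 0.986) did not pass, and this contrast shares its ESC units with the gonadal one. The parent line 656BTAG alone shares a title code with the PGCLCs. KRT8 averaged 62.1 RPM in it, against 137.2 in GK15 and 244 in aRB27. KRT19 averaged 29.8 against 190.995 and 93.4, and KRT18 172.9 against 174.9 and 216.4. With 1 line these differences were not tested. KRT7 reached 10 RPM in 5 of 28 ESCs, in 0 of 12 PGCLCs and in 0 of 25 gonadal cells, which allows shares of up to 25% and 12%. KRT222 averaged 2.16, 6.36 and 7.58 RPM in the ESC lines, at most 0.185 in the PGCLCs and 17.1, 11.98, 8.95 and 4.74 on the gonadal days. It was tested only because it reached 10 RPM at E36 and E43 and did not pass in either contrast (adjusted p = 0.102 and 0.443).

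The E16 means of KRT23 and KRT80 rested largely on 1 cell. KRT23 averaged 18.1 RPM at E16 and 1.36 or less on the other 8 days, and 70.1% of its RPM in the whole table came from 1 E16 cell of code MS133 with 2378 RPM. That cell also had the highest KRT80 value (347 RPM), 299.7 RPM of KRT7 and 4349 of KRT18, beside 56281 RPM of CGA, a hormone subunit of trophoblast, 1326 of GATA2 and 1038 of GATA3. Without it the E16 mean was 4.26 RPM for KRT23, 1.09 in place of 3.12 for KRT80 and 7.94 in place of 9.64 for KRT7. The second highest KRT80 value, 72.4 RPM, was in an E16 cell of MS132 with 174 RPM of TP63, a factor of stratified epithelium and trophoblast, 184 of KRT7 and 5883 of KRT18. KRT40 reached 10 RPM in 23 cells and at most 93.5 RPM, KRT15 in 9 and at most 92.2, and KRT20 in 7 and at most 39.9.

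Genes that anchor or regulate keratins were counted in 3 lists, which were chosen with earlier results of these data known. Of 13 tested genes for desmosomes, hemidesmosomes and keratin linkers, 4 were higher and 0 lower inside the GATA3 gate (DSP, the plaque protein that ties keratins to desmosomes, JUP, DSC2 and PERP), with a median of 0.59 (log2) beside -0.02 over all genes, of which 2.57% were called. Inside the SOX2 gate 0 were higher and 2 lower (JUP and PERP), with a median of -0.49 beside 0.00 over all genes, of which 7.68% were called. Of 17 epithelial regulators and junction genes, 4 were higher (GRHL1, GRHL3, TFAP2A and ST14) and 1 lower (OVOL2) inside the GATA3 gate. Inside the SOX2 gate 2 of the 17 were higher (OVOL2 and ESRP1) and 0 lower, with a median of -0.37. Inside the GATA4 gate 0 of the 17 were higher and 4 lower (CDH1, GRHL2, OVOL2 and ESRP1), against 5.92% of all genes called. After implantation, over all embryo cells, 1 of the 13 linkers was higher (DST) and 6 were lower (JUP, DSC2, PKP2, PERP, ITGA6 and FAM83H), with a median of -0.49 beside -0.05 over all genes, of which 30.7% were called. Of 17 epithelial regulators and junction genes, 8 were lower after implantation, among them CDH1, the epithelial cadherin, and EPCAM, and 1 was higher (HSPB1), with a median of -1.46. Of 9 other intermediate filament genes, VIM and NES, filaments of mesenchyme and neural progenitors, were higher and NEFL and LMNA lower. In gonadal germ cells against ESCs, 3 of 12 linkers were higher (JUP, PERP and DST) and 0 lower (median 0.55 beside -0.03), a share near the 20.8% of all genes called. Of 14 epithelial regulators and junction genes, 3 were higher there (GRHL1, KLF4 and TFAP2C) and 2 lower (CDH1 and HSPB1), with a median of -0.22. In PGCLCs VIM was higher and NES lower than in ESCs, and 3 of 14 epithelial regulators were higher (KLF4, TFAP2A and TFAP2C) and 0 lower (median 0.95 beside -0.17), against 11.1% of all genes called.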

How the data were processed

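The deposited table held RPM, which the authors had scaled to the mapped reads of each cell, with 1 column per cell and 0 columns left unused. The submitters' processing notes name cutadapt 1.3, TopHat 1.4.1 and Cufflinks 2.2.0, without their roles, and the genome build is not given in the sources used here. Columns were assigned by title. Whole reads were recovered in 551 columns, where 99.8% of values above 0 were whole within 0.1 read, and depths come from these. No doublet caller was run.

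Keratins were rows whose symbol matched the rule, and 45 of 46 gene IDs matched RefSeq. The keratins named with values were those at 10 RPM in at least 5 cells, by type, and the others were counted. Members, lists and tests were chosen with earlier results of these data known. Cells were averaged per line, medium or day (at least 5 cells). limma 3.58.1 (R 4.3.3, empirical Bayes with trend, two-sided) was fitted to log2(mean RPM + 1) for genes at 10 RPM in at least 2 units, with Benjamini-Hochberg adjustment over all genes tested and a threshold of 0.05. A log2 difference on this scale understates the change of low genes. The gonadal and PGCLC contrasts came from 1 fit, and gate contrasts had the day as block. Alternatives were a pseudocount of 10, no filter, the mean of log2 values, edgeR 4.0.16 on recovered reads, each unit left out, a gate of 100 RPM, cells inside 1 gate only, units by title code (at least 3 cells) and no day block. Intervals are exact (Clopper-Pearson, 95%), the limit for 0 cells is 3 divided by the cells, and both cover counting error only. The fits were tested on simulated data.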

Additional observations from a re-analysis of the deposited data

Results flagged for a closer look

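In 40 groups of 4 to 10 unit means of a keratin, 7 had a highest unit far from the others by Dixon's test, which chance does in about 1 in 20 groups. KRT33A was set apart at E09 among the days before implantation, at 435 RPM beside a median of 52.5 over all cells and at 869 RPM beside 47.7 inside the SOX2 gate. Both values rest on the same 8 cells inside that gate. KRT33A also stood apart at E17 among the GATA4 gate cells after implantation, at 12.3 RPM beside a median of 0.105. KRT23 stood apart at E16, at 18.1 RPM in all postimplantation cells and 40.5 RPM inside the GATA3 gate, and the cell with 2378 RPM lies in both sets. KRT19 stood apart in gonadal cells of E43, at 21.8 RPM beside a median of 4.34, with 1 of 6 cells at 117.98 RPM. KRT8 stood apart at E16 inside the SOX2 gate after implantation, at 236 RPM beside a median of 96.99.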

How the results depend on the processing

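Of the keratin results, the 19 calls and 37 values below the threshold kept their side in 624 of the alternatives, lost the call in 58, gained it in 10 and reversed a called direction in 0. In 40 further cases an uncalled difference changed sign without passing. With no filter on low genes the number of keratins called was 0 for PGCLCs against ESCs, 0 for the GATA3, GATA4 and SOX2 gates and 0 for the stages inside the GATA3 gate. With edgeR on recovered reads it was 0 for PGCLCs, 0 for the GATA3 and GATA4 gates and 1 for the SOX2 gate. With no day block it was 0 for the GATA3 and SOX2 gates. With the mean of log2 values it was 3 for the COL3A1 gate and 2 for the stages inside the GATA4 gate, and with units by title code 1 for the COL3A1 gate. Leaving out 1 unit at a time gave 0 to 1 keratins called for PGCLCs, 2 to 3 for gonadal cells, 2 to 3 for the GATA3 gate, 0 to 1 for the GATA4 gate, 1 to 3 for the SOX2 gate, 3 to 3 for the stages over all embryo cells and inside the SOX2 gate, 1 to 2 inside the GATA3 gate and 0 to 2 inside the GATA4 gate. The counts of 3 by stage include KRT33A, and the call of the GATA4 gate is KRT7. The text gives both as descriptions. A limit of 50 RPM gave 8 expressed keratins in place of 13. Over all genes the calls ranged from 1 to 437 for the GATA3 gate (271 as reported), 8 to 938 for the GATA4 gate (625), 29 to 2125 for the SOX2 gate (809), 0 to 775 for the COL3A1 gate (5), 473 to 1420 for PGCLCs (1169) and 1307 to 2446 for gonadal cells (2196). By stage they ranged from 2138 to 3867 (3072), and from 863 to 2306 inside the GATA3 gate (1772), 949 to 2409 inside the GATA4 gate (1844) and 2703 to 4043 inside the SOX2 gate (3591). The causes were not tested. The COL3A1 gate could not be fitted with cells inside 1 gate only, and its 2 days left no unit to omit. The gate comparisons were paired by day, or by title code and day. For lines, media and stages no paired analysis was run, and the replicate numbers only count cells within a group. Depth may limit the rare keratins, since 3 reads stood for 17.2 RPM in the shallowest cell and 1.48 RPM at the median depth, but this was not tested.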

Other observations

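Among the keratins below the rule, single high values were found in gonadal cells, ESCs and embryo cells. KRT17, a keratin of basal and stressed epithelia, reached 112.1 RPM in 1 gonadal cell of E43. KRT28 reached 120.9 RPM in 1 CMK6 cell and KRT26 101.7 RPM in 1 cell of E13. KRT24 reached 36.9 RPM in 1 gonadal cell of E51 and KRT34 39.3 RPM in 1 cell of E09, which also had 3756 RPM of KRT33A. In the 53 embryo cells inside none of the gates, KRT8 averaged 423 RPM (0 to 7218), KRT18 811 (0 to 16303) and KRT19 391.9 (0 to 2769), and KRT8 reached 10 RPM in 50 of them.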
